A study of Homo sapiens with 6 samples.

Results

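The genes of glucose transport, glycolysis, lactate handling, gluconeogenesis and glycogen metabolism were followed in HepG2 cells that overexpressed the Flag-tagged microprotein APPLE. They were taken as a list of 43 gene symbols, and each symbol was matched to the Ensembl identifier of a row of the deposited count table. All 43 were found among the 20422 genes of the table. The study sequenced bulk RNA of HepG2, a line grown from a human liver cancer. The compared groups were 3 samples with the vector (NC, the control) and 3 samples with the Flag-tagged open reading frame of the lncRNA ASH1L-AS1 (ORF-Flag), to learn which transcripts differ when APPLE is overexpressed. The methods of the study describe stable lines made with lentiviral vectors and selected with puromycin, while the sample descriptions speak of plasmids. Both groups come from 1 cell line, and since the labels do not say whether separate cultures were sampled, p-values here measure only the spread between these samples, which may be technical. The level of the construct was not analysed here.

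Sequencing depth, as the sum of counts, was 20081203 for NC replicate 1, 24907524 for NC replicate 2 and 30088457 for NC replicate 3. ORF-Flag replicate 1 reached 26866148, replicate 2 17494668 and replicate 3 27015836. Levels are given as CPM, scaled with TMM factors, and 3 counts correspond to between 0.0997 and 0.171 CPM in a library. The 43 genes together took between 1.30% and 1.41% of the counts of a library. Fold changes are ORF-Flag against NC on the log2 scale, and a gene is said to have risen or fallen only where edgeR's quasi-likelihood test gave a p-value below 0.05 after Benjamini-Hochberg adjustment over all 12386 tested genes.

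Cells take up glucose through transporters of the SLC2A family, trap it as glucose 6-phosphate, and pass it down glycolysis to pyruvate, which is either burned in mitochondria or reduced to lactate. The liver also runs the route in reverse, making glucose from lactate and amino acids, and stores glucose as glycogen. Normal hepatocytes use liver forms of many of these enzymes, whereas liver cancer cells commonly express the forms found in other tissues.

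The hepatocyte origin of the cells was visible in the libraries. All 12 listed hepatocyte and HepG2 markers were tested, and their summed level was 29626, 30270.3 and 30669 CPM in the NC libraries and 30961, 30495 and 30521 CPM in the ORF-Flag libraries. APOB was the most abundant of them, at a mean of 7698 CPM, and TTR was low, at between 5.63 and 6.66 CPM. APOH and FGB rose, with log2 fold changes of 0.15 and 0.14 (edgeR adjusted p = 0.0108 and 0.0232). Of the 8 fibroblast markers all stayed under 1 CPM in every library and DCN was at 0, and the 3 hemoglobin genes were at or near 0. Among 5 endothelial markers KDR and TEK were at 0, and the most abundant, PECAM1, lay between 3.84 and 4.78 CPM in NC and between 5.29 and 6.03 CPM in ORF-Flag (edgeR adjusted p = 0.0958). Of 7 leukocyte markers PTPRC and CD3E were at 0, CD68 had between 37.3 and 42.7 CPM, and LYZ, the lysozyme gene, was the most abundant and rose from between 1255 and 1401 CPM in NC to between 1488 and 1591 CPM in ORF-Flag (edgeR adjusted p = 0.0112). The leukocyte markers summed to 1303, 1444 and 1439 CPM in NC and 1534, 1635 and 1534 CPM in ORF-Flag, nearly all of it LYZ. Of 4 muscle markers CKM was the most abundant, at no more than 1.72 CPM.

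In ORF-Flag 1 glucose gene rose and 5 fell. SLC2A3, which encodes the glucose transporter GLUT3, rose by 12.4%. GYS1 (glycogen synthase), SLC37A4 (the transporter that brings glucose 6-phosphate into the endoplasmic reticulum), PFKL (the liver subunit of phosphofructokinase), PCK2 (mitochondrial phosphoenolpyruvate carboxykinase) and GPI (glucose 6-phosphate isomerase) fell, with log2 fold changes between -0.29 and -0.14. Of the 43 genes, 40 passed the filter on low counts and were tested. The rise of 1 of 40 stood beside 306 of 12386 tested genes that rose, or 2.47%, and the fall of 5 of 40 beside 245, or 1.98%. Of the 40, 25 had a log2 fold change below 0 and 15 above, with a median of -0.02, where the median over all tested genes was -0.001. Without NC replicate 1, the library with the highest median among the 6, the median of the 40 was 0.004. All ORF-Flag libraries exceeded all NC libraries in 5 of the 40 genes and in 11.5% of all tested genes, and all below in 8 of the 40 and in 10.9% of all tested genes. An unadjusted p below 0.05 was reached by 11 of the 40, and by 18.5% of all tested genes. In bulk samples such as these, fewer cells that express a gene and less of its RNA per cell cannot be told apart.

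**Figure D1:**
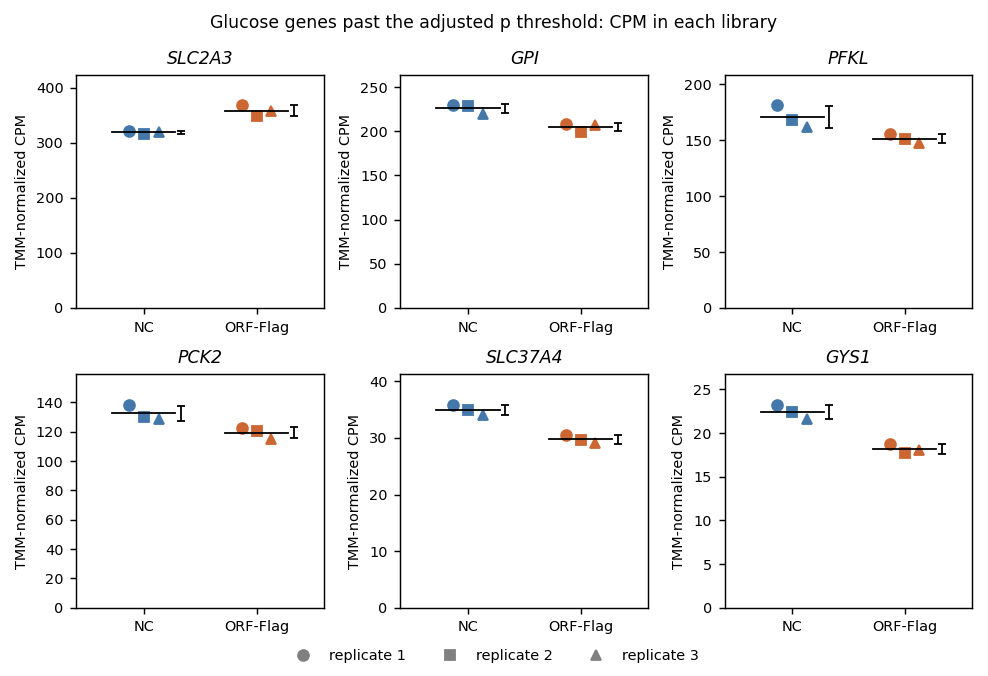
TMM-normalized CPM (vertical axis, from 0) of the 6 glucose genes past the adjusted p threshold in NC and ORF-Flag, 1 point per library with its replicate number as the shape, the group mean as a line and the SD of 3 libraries as a bar. The 3 ORF-Flag libraries lay above the NC libraries for SLC2A3 and below them for GPI, PFKL, PCK2, SLC37A4 and GYS1.

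Glucose enters through 3 listed transporters. SLC2A3 (ENSG00000059804.16, chr12:7919230-7936275, minus strand, protein-coding) had 321, 316 and 320.0 CPM in the NC libraries and 368, 348 and 358 CPM in the ORF-Flag libraries. No NC library reached the lowest ORF-Flag library, and the log2 fold change was 0.17 (SE 0.03, edgeR adjusted p = 0.00298). This call was kept in every other fit (adjusted p between 6.18e-05 and 0.0410), although a rise of 12.4% is less than a fold change of 1.2. Transcripts of other genes, SLC2A14 among them, share 39.3% of its 31-base stretches, so its count is uncertain. SLC2A1 (GLUT1), the main transporter of most proliferating cells, had 1633, 1475 and 1428 CPM in NC and 1458, 1419.9 and 1455 CPM in ORF-Flag, with NC replicate 1 the highest and the other libraries close together. Its log2 fold change was -0.07 (SE 0.04, edgeR adjusted p = 0.388), and with single libraries left out it ranged from -0.11 without NC replicate 3 to -0.01 without NC replicate 1 (adjusted p between 0.0526 and 0.949). SLC2A2 (GLUT2), the transporter typical of normal hepatocytes, had 11.9, 10.9 and 10.02 CPM in NC and 12.9, 12.5 and 12.8 CPM in ORF-Flag. The groups did not overlap, but the log2 fold change of 0.23 (SE 0.09) missed the threshold (edgeR adjusted p = 0.136). Per kilobase of exon, SLC2A1 held 85.3% ± 0.772 (SD, n = 3) of the summed level of the 3 transporters in NC and 83.2% ± 0.218 (SD, n = 3) in ORF-Flag, and SLC2A3 held 13.8% ± 0.791 (SD, n = 3) and 15.8% ± 0.219 (SD, n = 3), so the libraries remained dominated by SLC2A1.

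In the first steps of glycolysis 2 of 9 tested genes fell, as did 1.98% of all tested genes. GPI (ENSG00000105220.17, chr19:34359480-34402413, plus strand, protein-coding), which turns glucose 6-phosphate into fructose 6-phosphate, had 229.7, 228 and 219.6 CPM in NC and 208, 199 and 207 CPM in ORF-Flag. Each ORF-Flag library lay below each NC library, and the log2 fold change was -0.14 (SE 0.03, edgeR adjusted p = 0.0186). The call was lost without NC replicate 2 (adjusted p = 0.0923), ORF-Flag replicate 1 (0.0530), ORF-Flag replicate 2 (0.121) or ORF-Flag replicate 3 (0.0748), in a range over all other fits from 0.00269 to 0.121. Other genes share 22.7% of its 31-base stretches, so its count is less certain than that of PFKL. PFKL (ENSG00000141959.17, chr21:44300051-44327376, plus strand, protein-coding), part of the enzyme that commits sugar to glycolysis, had 182, 168 and 162 CPM in NC and 156, 151 and 147 CPM in ORF-Flag. The lowest NC library lay near the highest ORF-Flag library without overlap, and the log2 fold change was -0.17 (SE 0.04, edgeR adjusted p = 0.0140). With the trends of each library on GC content and transcript length removed it was -0.10 (edgeR adjusted p = 0.0484). Leaving out ORF-Flag replicate 2 ended the call (-0.17, adjusted p = 0.0516), as did leaving out ORF-Flag replicate 3 (-0.15, adjusted p = 0.116), and over all other fits the adjusted p lay between 0.000447 and 0.116.

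The other phosphofructokinase subunits were not called. PFKP, the platelet form, lay between 40.9 and 45.7 CPM in the 6 libraries with a log2 fold change of 0.01 (SE 0.05). PFKM, the muscle form, lay near 1 CPM with a log2 fold change of 0.02 (SE 0.25), too imprecise to show a difference of the size seen in PFKL. Per kilobase of exon, the share of PFKL in the summed level of the 3 subunits was 67.5% ± 1.10 (SD, n = 3) in NC and 64.8% ± 1.022 (SD, n = 3) in ORF-Flag, and PFKP held 31.95% ± 1.151 (SD, n = 3) and 34.7% ± 0.993 (SD, n = 3), with groups that did not overlap for either. No p-value was computed for shares.

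Hexokinase, which traps glucose in the cell, was represented among the 43 genes by HK1 and HK2, and HK2 had 152, 146 and 150.0 CPM in NC and 154, 150.2 and 147 CPM in ORF-Flag. HK2 held 99.5% of the per-kilobase level of this pair in NC and 99.3% in ORF-Flag, and its log2 fold change was 0.01 (SE 0.04). HKDC1, a hexokinase outside the 43 genes, was not called and had 28.8 CPM per kilobase beside 24.7 for HK2, so the share describes the listed pair alone. ALDOA, the main aldolase, had 1270.2, 1193 and 1170.0 CPM in NC and 1198, 1174 and 1157 CPM in ORF-Flag, with a log2 fold change of -0.04 that ranged from -0.07 without NC replicate 3 to -0.01 without NC replicate 1, and held 93.6% of the per-kilobase level of ALDOA and ALDOC in NC. TPI1, which interconverts the triose phosphates, had 479.9, 449 and 480.0 CPM in NC and 457, 437 and 429 CPM in ORF-Flag, with an unadjusted p of 0.0175 and an edgeR adjusted p = 0.159. The groups of TPI1 overlapped. The remaining genes of these steps (HK1, PFKM, PFKP and ALDOC) had log2 fold changes between -0.06 and 0.47, and HK1, at the upper end, had between 18 and 28 counts in a library (SE 0.29).

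The 3 bifunctional enzymes that set the level of fructose 2,6-bisphosphate, the strongest known activator of phosphofructokinase, included none past the threshold in edgeR, DESeq2, limma-trend or limma-voom, and 2 with an unadjusted p below 0.05, in opposite directions. PFKFB2 had 10.9, 11.7 and 10.4 CPM in NC and 11.7, 13.8 and 13.8 CPM in ORF-Flag, and its log2 fold change was 0.25 (SE 0.09, edgeR adjusted p = 0.112). PFKFB3 had 9.50, 7.61 and 8.19 CPM in NC and 6.63, 6.66 and 7.33 CPM in ORF-Flag, and its log2 fold change was -0.28 (SE 0.11, edgeR adjusted p = 0.162). Neither gene's groups overlapped. PFKFB4, the most abundant of the 3 per kilobase, had 16.0, 16.4 and 16.0 CPM in NC and 16.8, 14.5 and 14.6 CPM in ORF-Flag. Per kilobase, the share of PFKFB2 was 21.15% ± 1.21 (SD, n = 3) in NC and 26.2% ± 2.71 (SD, n = 3) in ORF-Flag, and that of PFKFB3 27.0% ± 2.56 (SD, n = 3) and 22.9% ± 1.27 (SD, n = 3).

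**Figure D2:**
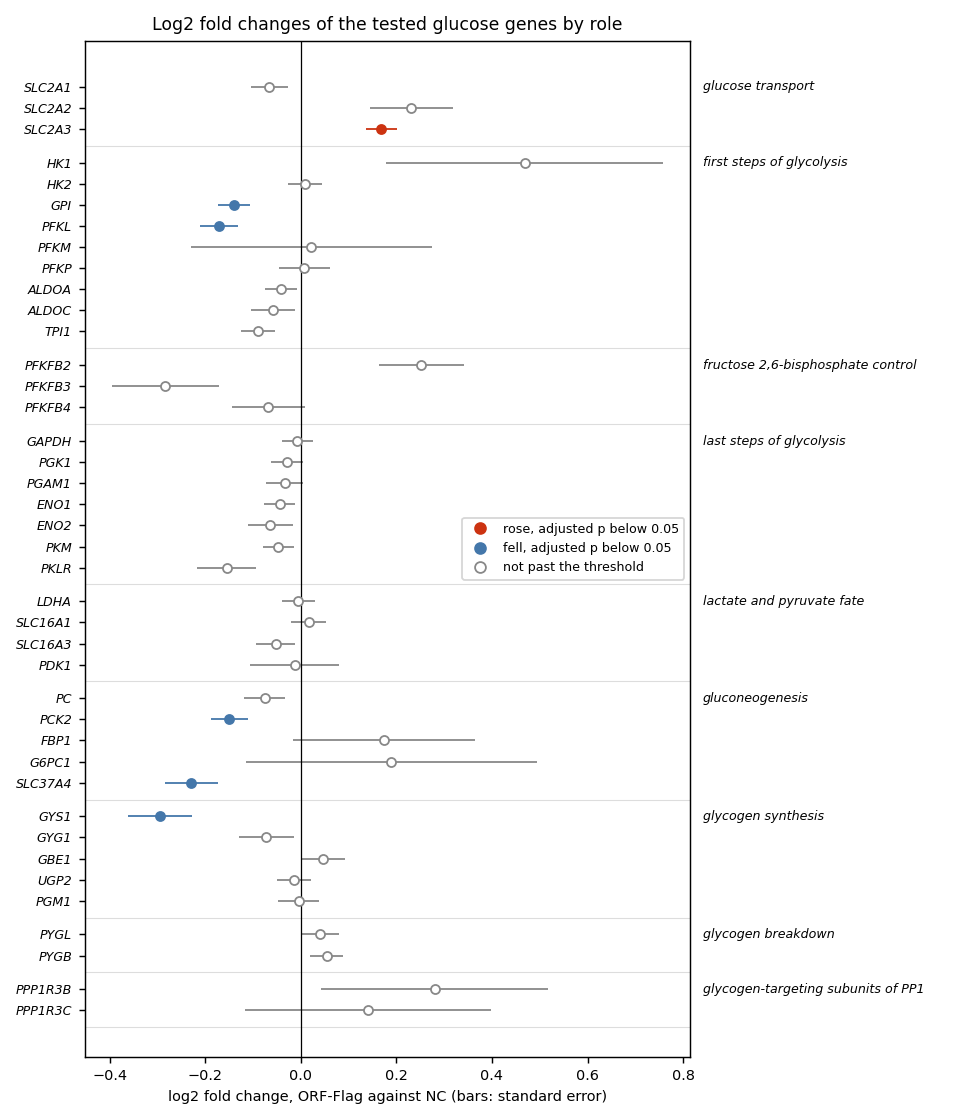
Log2 fold change of ORF-Flag against NC (horizontal axis) with its standard error for each of the 40 tested glucose genes, in the order of their roles, filled where the adjusted p was below 0.05. SLC2A3 stands to the right of 0, the 5 genes that fell stand between -0.29 and -0.14, and the 7 genes of the last steps of glycolysis lie between -0.16 and -0.01 in this fit.

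The last steps of glycolysis held the most abundant glucose genes, and no gene of the 7 was called in edgeR, DESeq2, limma-trend or limma-voom, with 1 at an unadjusted p below 0.05. Per kilobase of exon, GAPDH came first of all 43 genes and ENO1 second. GAPDH, the dehydrogenase that yields NADH, had 2344, 2205 and 2232 CPM in NC and 2273, 2206 and 2265 CPM in ORF-Flag, and its log2 fold change was -0.01 with a standard error of 0.03. ENO1, the main enolase, had 2595, 2481 and 2529 CPM in NC and 2529, 2426 and 2420.2 CPM in ORF-Flag. PKM, the pyruvate kinase gene of most tissues, had 1170.4, 1131 and 1128 CPM in NC and 1129.9, 1112 and 1077 CPM in ORF-Flag. The groups of each of these genes overlapped. PKLR, the liver and red cell pyruvate kinase, had 36.3, 33.2 and 32.9 CPM in NC and 30.5, 28.6 and 32.3 CPM in ORF-Flag, without overlap, a log2 fold change of -0.16 (SE 0.06, unadjusted p of 0.0175, edgeR adjusted p = 0.159). PKM held 92.5% of the per-kilobase pyruvate kinase level in NC and 93.1% in ORF-Flag. PGK1 (phosphoglycerate kinase), PGAM1 (phosphoglycerate mutase) and ENO2 (the neuronal enolase) were not called and had log2 fold changes between -0.06 and -0.03. The log2 fold changes of the 7 genes were between -0.16 and -0.01, but GAPDH and PGAM1 lay above 0 without NC replicate 1 (0.02 and 0.01), and GAPDH also without ORF-Flag replicate 2 and with the GC and length trends removed (0.02). Their summed level was 7081, 6734 and 6816 CPM in NC and 6876, 6629 and 6675 CPM in ORF-Flag, which overlap.

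Lactate and pyruvate genes showed the smallest differences among the roles with more than 2 genes, with log2 fold changes between -0.05 and 0.02 and no unadjusted p below 0.05. LDHA, which reduces pyruvate to lactate, had 1058, 1010.2 and 1082 CPM in NC and 1072, 1004 and 1061 CPM in ORF-Flag. LDHB, the form that favours the opposite reaction, had no more than 2 counts in any library and was not tested, and 61.6% of its 31-base stretches are shared with other genes, so its count is uncertain. The lactate exporters SLC16A1 and SLC16A3 had between 109 and 113 CPM and between 225 and 259 CPM. SLC16A3, the more abundant of them per kilobase, had 259, 228 and 225 CPM in NC and 230.2, 228 and 226 CPM in ORF-Flag, with NC replicate 1 apart from the other libraries. Its log2 fold change of -0.05 ranged from -0.09 without NC replicate 3 to 0.01 without NC replicate 1, and was 0.01 with the GC and length trends removed. PDK1, the kinase that switches off pyruvate dehydrogenase, lay between 12.2 and 15.9 CPM.

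Of the 6 gluconeogenesis genes 5 were tested and 2 fell, as did 1.98% of all tested genes. PCK2 (ENSG00000100889.12, chr14:24094053-24110598, plus strand, protein-coding) had 138, 130.4 and 129 CPM in NC and 122, 121 and 115 CPM in ORF-Flag. The groups did not overlap, and the log2 fold change was -0.15 (SE 0.04, edgeR adjusted p = 0.0271). Removing the GC and length trends brought it to -0.10 and ended the call (edgeR adjusted p = 0.0616), in a range over all other fits from 0.00529 to 0.199. The call was also lost without NC replicate 1 (adjusted p = 0.0661), NC replicate 2 (0.0633), ORF-Flag replicate 1 (0.0549), ORF-Flag replicate 2 (0.0667) or ORF-Flag replicate 3 (0.199), and remained only without NC replicate 3. SLC37A4 (ENSG00000137700.19, chr11:119024114-119030906, minus strand, protein-coding) had 35.9, 34.9 and 34.0 CPM in NC and 30.6, 29.6 and 29.1 CPM in ORF-Flag. Every ORF-Flag library lay below every NC library, and the gene fell by 14.7%, a log2 fold change of -0.23 (SE 0.06, edgeR adjusted p = 0.0179). It was not called without NC replicate 2 (adjusted p = 0.0739), ORF-Flag replicate 2 (0.0630) or ORF-Flag replicate 3 (0.115), in a range over all other fits from 0.00722 to 0.115. The spans of both genes, introns included, overlap a gene on the opposite strand, NRL for PCK2 and TRAPPC4 for SLC37A4. Whether their exons overlap was not examined, and the use of strand in the counting is not given in the sources used here. Reads from any exon stretch shared by such a pair may therefore not be told apart. Other listed genes, such as TPI1, PKLR and SLC16A3, also overlap genes on the opposite strand. PC, the carboxylase that starts gluconeogenesis from pyruvate, lay between 75.6 and 83.9 CPM with a log2 fold change of -0.08, which was -0.02 with the GC and length trends removed. The enzymes that mark gluconeogenesis in normal liver were scarce. G6PC1, the glucose 6-phosphatase of the liver, had no more than 1.03 CPM, FBP1, the fructose bisphosphatase of the liver, lay between 2.07 and 3.20 CPM, and PCK1, the cytosolic carboxykinase, had no more than 5 counts in a library and was not tested. PCK2 held over 99.9% of the per-kilobase level of PCK1 and PCK2 in both groups.

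Among the 6 glycogen synthesis genes, of which 5 were tested, GYS1 fell, the largest fall among the 43 genes that passed the threshold. GYS1 (ENSG00000104812.15, chr19:48968125-48993310, minus strand, protein-coding), the glycogen synthase expressed in muscle and many other tissues, had 23.2, 22.4 and 21.6 CPM in NC and 18.8, 17.7 and 18.1 CPM in ORF-Flag. The highest ORF-Flag library lay below the lowest NC library, and the gene fell by 18.5%, a log2 fold change of -0.29 (SE 0.07, edgeR adjusted p = 0.0111). The call ended when ORF-Flag replicate 2 (-0.28, adjusted p = 0.0541) was left out, and likewise for ORF-Flag replicate 3 (-0.29, adjusted p = 0.0676), in a range over all other fits from 0.00270 to 0.0676. GYS1 is among the genes for which the study lists qPCR primers, and no qPCR value was used here. GYS2, the liver glycogen synthase, had no more than 1 count in a library and was not tested, but 87.5% of its 31-base stretches are shared with other genes, so a low count may understate it. UGP2, which makes UDP-glucose for glycogen, was the most abundant of the group in CPM, with 319, 347 and 352 CPM in NC and 333, 341 and 335 CPM in ORF-Flag. The others, GYG1 (the primer protein glycogenin), GBE1 (the branching enzyme) and PGM1 (phosphoglucomutase), had log2 fold changes between -0.07 and 0.05.

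Neither glycogen phosphorylase was called in edgeR, DESeq2, limma-trend or limma-voom, and neither had an unadjusted p below 0.05. PYGB, the brain form, had 148, 145 and 141 CPM in NC and 148, 152 and 151 CPM in ORF-Flag, with a log2 fold change of 0.05 (SE 0.04), and the lowest ORF-Flag library was barely above the highest NC library. With the GC and length trends removed it was 0.09 (edgeR adjusted p = 0.0626). PYGL, the liver form, had 107, 116 and 113 CPM in NC and 115, 119 and 113 CPM in ORF-Flag. Per kilobase of the union of exons PYGB held 58.1% of the phosphorylase level in NC, but with the length of the longest transcript it held 48.8%, so the order of the pair was not settled by these counts. The subunits that bring protein phosphatase PP1 to glycogen, PPP1R3B and PPP1R3C, lay between 0.94 and 1.70 CPM, with between 18 and 46 counts in a library. Their log2 fold changes of 0.28 and 0.14 had standard errors of 0.24 and 0.26, and a difference of that size was not detectable at this depth.

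**Figure D3:**
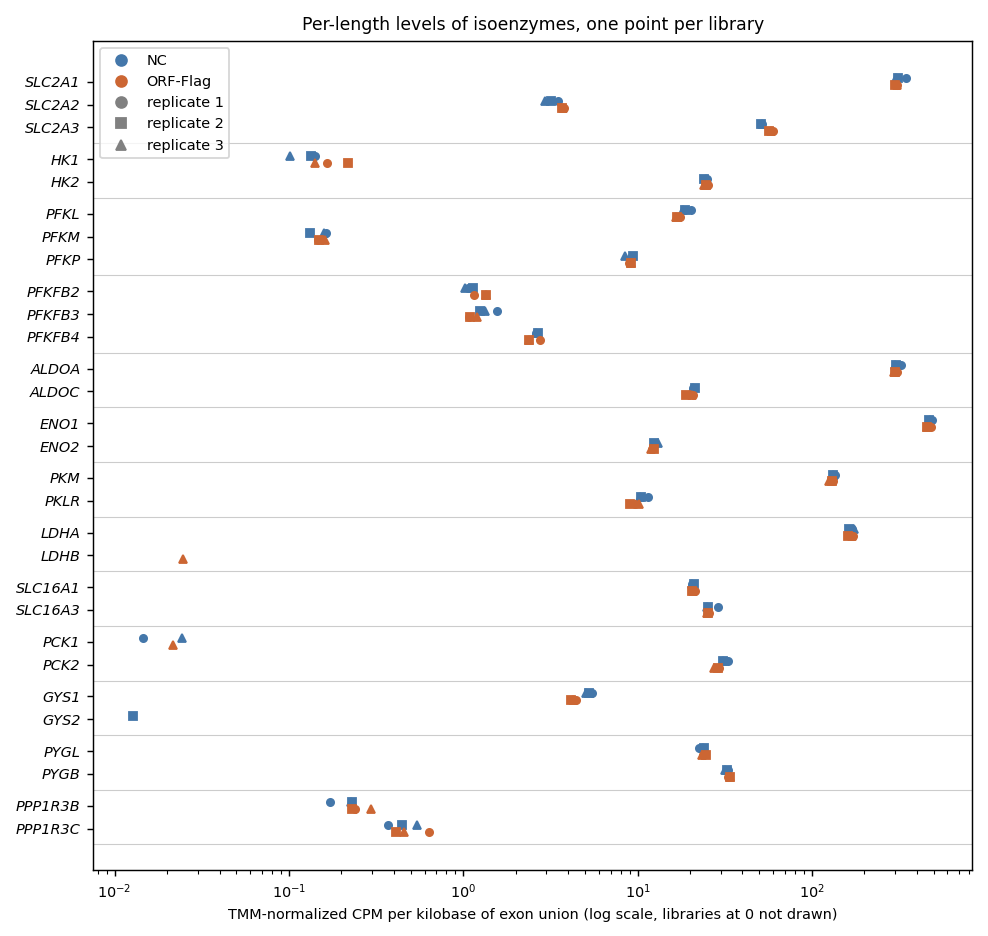
TMM-normalized CPM per kilobase of exon (horizontal axis, log scale) of the isoenzymes of 13 families, 1 point per library with NC above ORF-Flag in each row and the replicate number as the shape. HK2, ALDOA, ENO1, PKM, LDHA, PCK2 and GYS1 each held over 90% of the level of the listed genes of their family in all 6 libraries, and LDHB, PCK1 and GYS2 were at or near 0.

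Across the 13 families of isoenzymes, 7 were led by 1 gene with over 90% of the per-kilobase level in each library, a count defined after the shares had been seen. Families hold the listed genes only, and shared 31-base stretches (59.1% of those of ALDOA) leave some shares uncertain. In order of per-kilobase level the genes past the threshold were SLC2A3 (55.0 CPM per kilobase, rank 10 of 43), PCK2 (30.1, rank 13), GPI (20.2, rank 19), PFKL (18.0, rank 20), SLC37A4 (5.23, rank 28) and GYS1 (4.78, rank 29). The order depends on the length used, and with the longest transcript GPI had 49.6 CPM per kilobase, near PCK2 with 50.3 and above PFKL with 26.8. None of the 9 most abundant genes per kilobase was among them.

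The transcripts of the 5 genes that fell have 53.1% GC in GPI, 56.7% in SLC37A4, 58.7% in GYS1, 61.6% in PCK2 and 64.1% in PFKL, and SLC2A3 has 45.8%. Genes that were not called reach similar values, such as 62.7% in SLC16A3, 61.1% in PC and 58.8% in GAPDH. Their log2 fold changes were also below 0, at -0.05, -0.08 and -0.01. Whether GC content caused any of these differences was not tested. Over all tested genes with a transcript, the 3086 with the highest GC content (56.9% to 75.8%) had a median log2 fold change of -0.05, and the 3087 with the lowest (30.9% to 42.0%) had 0.03. With the GC and length trends removed, GYS1 had a log2 fold change of -0.26 (edgeR adjusted p = 0.0110), SLC37A4 -0.20 (edgeR adjusted p = 0.0155) and GPI -0.12 (edgeR adjusted p = 0.00684). PFKL and PCK2, the richest in GC of the 5, moved most, both to -0.10, and PCK2 lost its call (edgeR adjusted p = 0.0616, in a range over all its other fits from 0.00529 to 0.199).

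The promoters of the genes that fell are shown for GYS1, PFKL and SLC37A4. A promoter was given for 37 of the 43 genes in the RefSeq table on GRCh38.p14, and SLC2A3 was not among them. The 250 bases before the RefSeq start are printed 5′ to 3′ with each GC box, GGGCGG on either strand, in capitals, where adjoining matches may overlap. They lie at chr19:48993310-48993559 (minus strand) for GYS1, at chr21:44299803-44300052 (plus strand) for PFKL and at chr11:119030878-119031127 (minus strand) for the upstream start of SLC37A4, at or close to the annotated 5′ ends of the genes.
GYS1: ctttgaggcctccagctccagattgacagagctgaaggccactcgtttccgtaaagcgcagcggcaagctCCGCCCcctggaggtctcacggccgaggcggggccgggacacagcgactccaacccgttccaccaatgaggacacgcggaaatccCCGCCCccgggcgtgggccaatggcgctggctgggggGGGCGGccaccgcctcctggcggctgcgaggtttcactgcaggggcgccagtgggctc
PFKL: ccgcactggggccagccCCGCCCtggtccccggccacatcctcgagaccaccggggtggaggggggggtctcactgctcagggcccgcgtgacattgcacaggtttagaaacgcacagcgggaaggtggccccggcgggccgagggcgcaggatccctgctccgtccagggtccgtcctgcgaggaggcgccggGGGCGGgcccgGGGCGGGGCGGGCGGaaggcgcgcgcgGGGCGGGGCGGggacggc
SLC37A4: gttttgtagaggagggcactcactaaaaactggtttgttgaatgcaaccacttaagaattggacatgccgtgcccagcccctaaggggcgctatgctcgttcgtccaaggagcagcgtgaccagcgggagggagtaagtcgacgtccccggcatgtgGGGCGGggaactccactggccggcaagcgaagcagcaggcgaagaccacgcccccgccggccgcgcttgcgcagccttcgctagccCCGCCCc

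GYS1 has 3 matches to the GC box, PFKL 7 and this start of SLC37A4 2, and a GC box was found in 42.6% of 35116 promoter windows of the same length, and in 43 of the 70 windows of the glucose genes. The E-box CACGTG, held by 6.34% of the windows, and the shorter ACGTG, which lies within it and was held by 18.5%, had 0 matches in these 3 windows, and of the 70 windows 9 held the E-box and 25 ACGTG. PCK2 has 4 GC boxes, the downstream start of SLC37A4 has 0, and GPI has 0 GC boxes and 1 ACGTG, and these windows lie inside the annotated genes. The 3 motifs were chosen after the calls were known. The letters were matched as a description and say nothing about binding.

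The calls of a fall were not kept in every fit with 5 libraries, where all genes called numbered 278 without ORF-Flag replicate 2 and 199 without ORF-Flag replicate 3. Leaving out ORF-Flag replicate 2 ended all 5 of them, with edgeR adjusted p-values between 0.0516 and 0.121, and leaving out ORF-Flag replicate 3 did so with edgeR adjusted p-values between 0.0676 and 0.199. Without NC replicate 2, GYS1 and PFKL were still called and the other 3 were not, without ORF-Flag replicate 1 GPI and PCK2 were lost, and without NC replicate 1 PCK2 was lost. No fit turned a direction, and the log2 fold changes with single libraries left out were between -0.32 and -0.27 for GYS1, -0.25 and -0.21 for SLC37A4, -0.21 and -0.13 for PFKL, -0.17 and -0.12 for PCK2, and -0.16 and -0.12 for GPI. At an unadjusted p below 0.05 and a fold change above 1.2, the glucose genes counted were GYS1 and PFKFB3, both lower, and SLC2A3 was not among them.

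**Figure D4:**
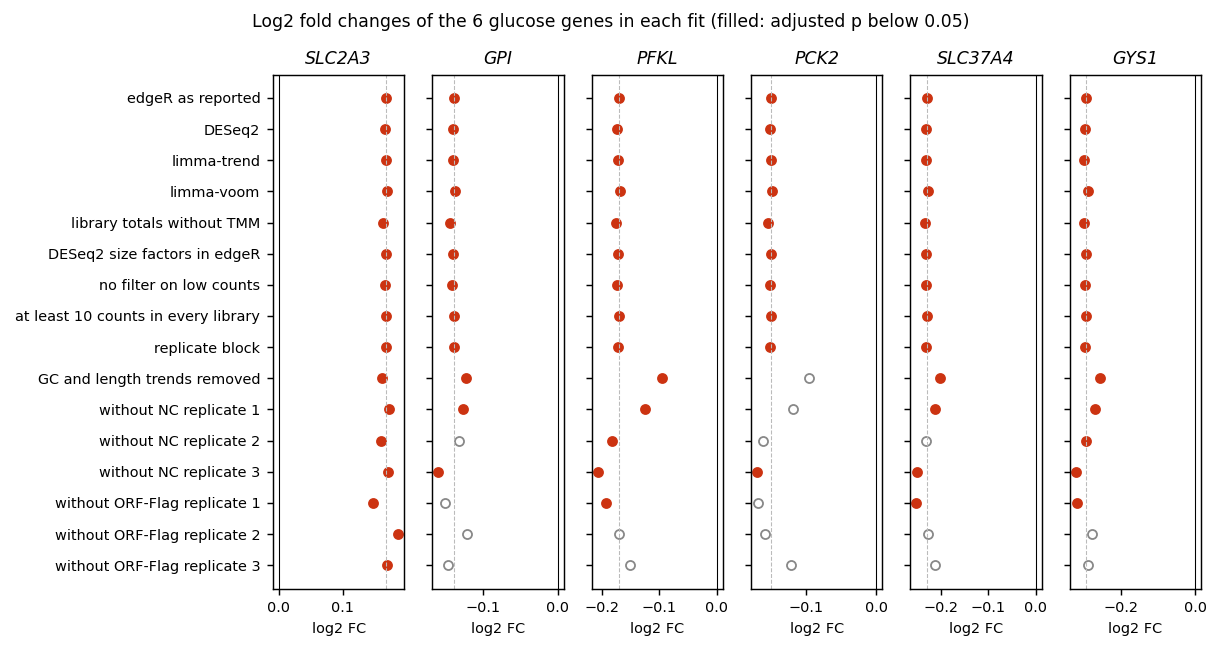
Log2 fold change of the 6 glucose genes (horizontal axes, scaled separately) in the reported edgeR fit and 15 other fits (rows), filled where the adjusted p was below 0.05. SLC2A3 is filled in every row, and the 5 genes that fell are open without ORF-Flag replicate 2 and without ORF-Flag replicate 3.

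Other genes of the pathway were taken from fixed lists. Of 25 other genes of glucose transport and glycolysis, 19 were tested and 0 were called in edgeR, DESeq2, limma-trend or limma-voom, with 2 at an unadjusted p below 0.05. Of 26 other glycogen genes, including the phosphorylase kinase and PP1 catalytic subunits, 22 were tested and 0 were called by any of these tools, with 4 at an unadjusted p below 0.05, which 18.5% of all tested genes reached. Of 19 other pyruvate and lactate genes, 14 were tested and 1 fell, LDHD, the mitochondrial D-lactate dehydrogenase, with 6.97, 7.13 and 7.68 CPM in NC and 6.03, 5.57 and 3.85 CPM in ORF-Flag. ORF-Flag replicate 3 was the lowest, and the log2 fold change of -0.51 (SE 0.14, edgeR adjusted p = 0.0364) became -0.32 without it (edgeR adjusted p = 0.274). DESeq2 did not call LDHD (adjusted p = 0.0733), nor did edgeR without NC replicate 2 (0.0927), NC replicate 3 (0.0543) or ORF-Flag replicate 2 (0.0527), and over all other fits the adjusted p lay between 0.00306 and 0.274. Of 10 other gluconeogenesis genes, 8 were tested and 1 rose, GOT1, the cytosolic aspartate aminotransferase, with 185, 187 and 183 CPM in NC and 197, 207 and 201 CPM in ORF-Flag. Its log2 fold change was 0.12 (SE 0.03, edgeR adjusted p = 0.0374), and the call was lost without NC replicate 2 (0.104), ORF-Flag replicate 1 (0.0659), ORF-Flag replicate 2 (0.198) or ORF-Flag replicate 3 (0.142), with adjusted p-values from 0.00501 to 0.198 over all other fits.

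Among 17 regulators of glucose genes MYC, a transcription factor that activates many glycolysis genes, fell. MYC had 188, 172 and 175 CPM in NC and 162, 160.2 and 165 CPM in ORF-Flag, without overlap. Its log2 fold change was -0.13 (SE 0.04, edgeR adjusted p = 0.0416), and the call was lost in limma-voom (adjusted p = 0.0511) and in edgeR without NC replicate 1 (0.122), ORF-Flag replicate 1 (0.139), ORF-Flag replicate 2 (0.157) or ORF-Flag replicate 3 (0.115). Over all other fits its adjusted p lay between 0.0124 and 0.157. The other 16 regulators, HIF1A and HNF4A among them, were not called.

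Readout lists outside the 43 genes differed in what they held. Of 15 tested hypoxia-response genes 0 were called in edgeR, DESeq2, limma-trend or limma-voom, with 3 at an unadjusted p below 0.05 and a median log2 fold change of -0.02. Of 6 glucose-responsive genes TXNIP rose, a gene induced by glucose whose product restrains glucose uptake. TXNIP had 36.4, 34.6 and 35.2 CPM in NC and 42.8, 39.0 and 42.3 CPM in ORF-Flag, which did not overlap, with a log2 fold change of 0.23 (SE 0.05, edgeR adjusted p = 0.0147). Without NC replicate 2 (adjusted p = 0.0923), ORF-Flag replicate 1 (0.0807) or ORF-Flag replicate 3 (0.0936) it was not called, and over all other fits the adjusted p lay between 0.00408 and 0.0936. Of 5 tested genes that respond to insulin or FOXO factors IGFBP1 rose, a secreted binding protein for insulin-like growth factors, with 276, 279.7 and 275 CPM in NC and 317, 318 and 325 CPM in ORF-Flag. Each group was tight, the log2 fold change was 0.21 (SE 0.03, edgeR adjusted p = 0.000232), and the call was kept with each library left out.

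**Figure D5:**
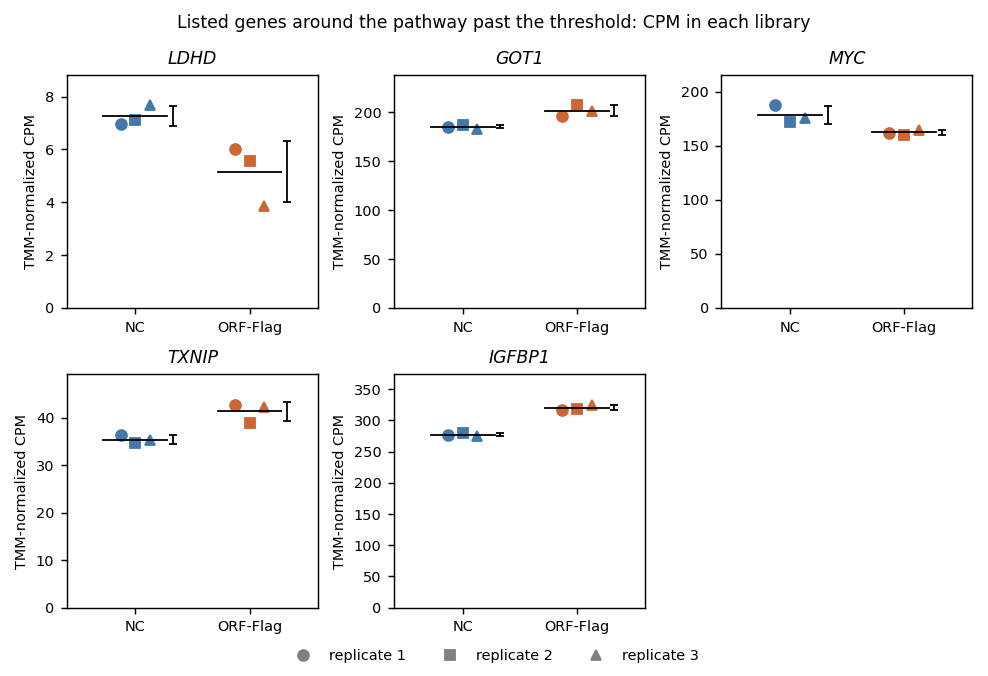
TMM-normalized CPM (vertical axis, from 0) of LDHD, GOT1, MYC, TXNIP and IGFBP1, genes outside the 43 that passed the threshold, 1 point per library, the group mean as a line and the SD of 3 libraries as a bar. LDHD and MYC are lower and GOT1, TXNIP and IGFBP1 higher in the ORF-Flag libraries, and the lowest LDHD value, 3.85 CPM, belongs to ORF-Flag replicate 3.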

How the data were processed

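The gene counts that the authors deposited were used unchanged. The submitters' processing notes name cutadapt 1.11, HISAT2 2.1.0, featureCounts 1.6.0 and GRCh38. The strand setting is not given in the sources used here. Total counts lay between 17494668 and 30088457. With edgeR 4.0.16 in R 4.3.3, genes were filtered with filterByExpr, scaled with TMM and tested with glmQLFit and glmQLFTest. The fit took group alone, and the standard error came from the F statistic. Alternatives were DESeq2 1.42.0, limma-trend and limma-voom (limma 3.58.1), other scaling and filters, a replicate block, each library left out, and GC and length trends removed. The fits were tested on simulated data. Lengths, GC content and shared 31-base stretches came from GENCODE v29 on GRCh38, and promoters from RefSeq on GRCh38.p14. Named were all 43 genes by role, and from each pathway, regulator or readout list reported up to 8 with an adjusted p below 0.05. Cell markers were summed per list. Promoters matched 37 of 43 genes. The 43 genes and the lists were chosen with earlier results of these data known. Figures were drawn with matplotlib 3.10.9.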

Additional observations from a re-analysis of the deposited data

How the results depend on the processing

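DESeq2, limma-trend, limma-voom, library totals without TMM, DESeq2 size factors, no filter and at least 10 counts in every library each called the same 6 glucose genes, with between 410 and 824 genes called in all. Removing GC and length trends left 5 of them and called 807 genes. At an unadjusted p below 0.05 and a fold change above 1.2, 0 glucose genes rose and 2 fell, and 562 genes were called in all.

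With single libraries left out, the glucose genes that fell numbered between 0 and 5, 1 rose in each fit, all genes called numbered between 199 and 1058, the median log2 fold change of the glucose genes went from -0.0552, with ORF-Flag replicate 1 dropped, to 0.0041, with NC replicate 1 dropped, and between 15 and 19 of them had groups that did not overlap, against 13 with all libraries and 11 without TMM. Groups of 2 and 3 libraries separate more often by construction, and the share over all tested genes was not computed for these settings. A group of 2 libraries has fewer samples, and beyond that the cause was not tested.

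With the replicate number as a block, 731 genes were called, and of the glucose genes 1 rose and 5 fell, the same 6. The numbers were not taken to pair the samples. Libraries with the same number had correlations of their deviations of 0.0666, 0.0266 and 0.0448. ORF-Flag replicate 2 was slightly closer to NC replicate 3 (0.0304) than to NC replicate 2. The remaining pairs with unlike numbers lay between -0.0780 and 0.00471, below every pair with the same number. SIK1, a regulator that was not called, had 5.74 CPM in NC replicate 1 and 9.35 CPM in ORF-Flag replicate 1. In the other libraries SIK1 had between 0.501 and 1.07 CPM.

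Using the longest transcript as the length moved 18 isoenzyme shares by more than their SD and made PYGL the lead of its pair, while 11 shares stayed within it. The count of 7 families led by 1 gene was the same with either length and with each library left out, but it was defined after the shares had been seen. Those left-out libraries, the alternatives for the count of genes without overlap between groups, and all alternatives for LDHD, GOT1, MYC, TXNIP and IGFBP1 were chosen after seeing the data. Genes near 1 CPM had standard errors above 0.2 on the log2 scale, so only large differences could have been seen in them.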
